A study of Mus musculus with 14 samples.

Results

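Ift57 and Cd47 are neighbouring genes on mouse chromosome 16. Their gene bodies were examined as contact partners in 2 pooled contact matrices of mouse embryonic stem cells (mESC). They were taken as every 10 kb bin that overlaps the RefSeq body of either gene (mm10), which gave 8 bins for Ift57 (49690001 to 49770000) and 7 bins for Cd47 (49850001 to 49920000). These were 15 of the 535 bins of the interval, which ran from 45520001 to 50870000. A further 8 bins, 49770001 to 49850000, lay between the genes. One matrix was deposited as mESC after 2 days of auxin and the other as untreated mESC, each with its replicates already combined. Cells engineered to carry a degron break down the protein that bears it when this plant hormone is added. No label mentions auxin or a degron, so the protein concerned is not stated here. The 14 labelled Capture Hi-C samples came from an mESC hybrid of the Cas and 129 strains, from neural precursor cells made from it, and from deletion and inversion lines; no label ties any of them to these matrices, so none entered a comparison.

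The names of the matrices do not state the assay, and they were read as a form of Hi-C. Hi-C ligates fragments of DNA that are near each other inside the nucleus. The number of read pairs that link a pair of bins thus measures how often these touch. Contact falls with distance along the chromosome, so contact values below were divided by the mean at the same distance in the same matrix. Insulation scores and boundaries, explained below, were not divided in this way. A stretch across which contacts are sparse is called insulated, and a local minimum of contact across it a boundary. Cd47 encodes a membrane protein of the immunoglobulin superfamily that binds the SIRP alpha receptor on phagocytes and restrains engulfment. Ift57 encodes a subunit of intraflagellar transport complex B, which carries cargo along the cilium. Both genes lie on the plus strand.

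Ift57 (gene ID 73916) spans 49699294 to 49765126, and Cd47 (gene ID 16423) spans 49851328 to 49912503, which leaves 86201 bases between them. The stretch between them holds the annotated non-coding gene Gm16619 and most of Gm4633, and Gm52251 and Gm15518 overlap Ift57. To the left lies the non-coding gene Gm31494 and to the right Gm5486, and the nearest protein-coding gene on the right is Bbx, at 50191844 to 50432466. RefSeq's promoter table, built on GRCm38.p6 and so in mm10 coordinates, gives 1 start for Ift57 and 2 for Cd47 that are 7 bases apart, each in the first bin of its gene; the annotated body of Cd47 begins further left than either. The 250 bases before a start are shown for each gene, since these mark where in the matrices transcription begins; capitals mark CpG dinucleotides. The Ift57 stretch is at chr16:49699044-49699293 and the Cd47 stretch at chr16:49855404-49855653, both on the plus strand.
Ift57: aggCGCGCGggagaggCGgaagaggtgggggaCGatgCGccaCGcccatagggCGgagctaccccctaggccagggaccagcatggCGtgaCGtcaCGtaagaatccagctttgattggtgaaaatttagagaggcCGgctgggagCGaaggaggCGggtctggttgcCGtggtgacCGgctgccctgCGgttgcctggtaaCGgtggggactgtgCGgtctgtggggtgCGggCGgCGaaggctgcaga
Cd47: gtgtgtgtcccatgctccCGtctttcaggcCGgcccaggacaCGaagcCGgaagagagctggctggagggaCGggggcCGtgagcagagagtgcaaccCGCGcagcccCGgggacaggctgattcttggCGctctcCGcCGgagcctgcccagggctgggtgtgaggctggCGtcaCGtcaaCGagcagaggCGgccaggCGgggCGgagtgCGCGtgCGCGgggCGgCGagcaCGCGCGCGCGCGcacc
The Ift57 stretch held 22 CpG and was 66.0% G and C, and the Cd47 stretch held 30 CpG and was 73.2% G and C. The median over the table's 32851 starts was 6 CpG; 85.2% of them held fewer than Ift57 and 94.1% fewer than Cd47.

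The auxin matrix corresponded to 433895 read pairs and the untreated matrix to 439849, with a median per bin of 1532 and 1542. Bins of Ift57 held 139 to 2537 pairs in the auxin matrix and 170 to 2725 in the untreated one. Those of Cd47 held 729 to 2552 and 700 to 2499. The fifth bin of Ift57, at 49730001, was the sparsest of both genes, with 139 pairs in the auxin matrix and 170 in the untreated one. Several results that draw on it are also given without it. Contact of Cd47 to the left, its balance of right over left and its contact 110 to 250 kb to the left also draw on this bin. These Cd47 results were not computed without it. With 1 matrix per condition there were no replicates and no test, so each comparison is between these libraries and not between conditions. Brackets give 95% intervals that cover counting error only; pairs copied from 1 molecule by PCR are not independent. A value is called higher or lower in the auxin matrix only where the log2 ratio of auxin over untreated was at least 0.2 in size and its interval left out 0. Because values are relative to the mean at their distance, more contact in some bin pairs lowers the value of others.

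The first question was whether the neighbouring gene bodies touched more or less than other stretches at their spacing. Contact between Ift57 and Cd47 was 0.967 times the expected value in the auxin matrix (0.861 to 1.08, 534 read pairs) and 1.15 times in the untreated matrix (0.993 to 1.32, 592 read pairs). The log2 ratio was -0.25 (-0.51 to 0.02), so the pair was not called. Over all 513 placements of stretches of the same size and spacing in the interval, the median was 1.01 in the auxin matrix and 1.02 in the untreated matrix. The value of Ift57 with Cd47 exceeded 38.4% of placements in the auxin matrix and 81.3% in the untreated matrix, both well within the range that other stretches covered. Of the placements, 8.19% were called lower and 10.7% higher. Without the sparsest Ift57 bin the log2 ratio was -0.06 (-0.29 to 0.16), and with recovered read pairs in place of deposited values it was -0.06 (-0.23 to 0.11). With each stated position taken as a bin's end it was -0.36 (-0.63 to -0.09), which was called lower.

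**Figure D1:**
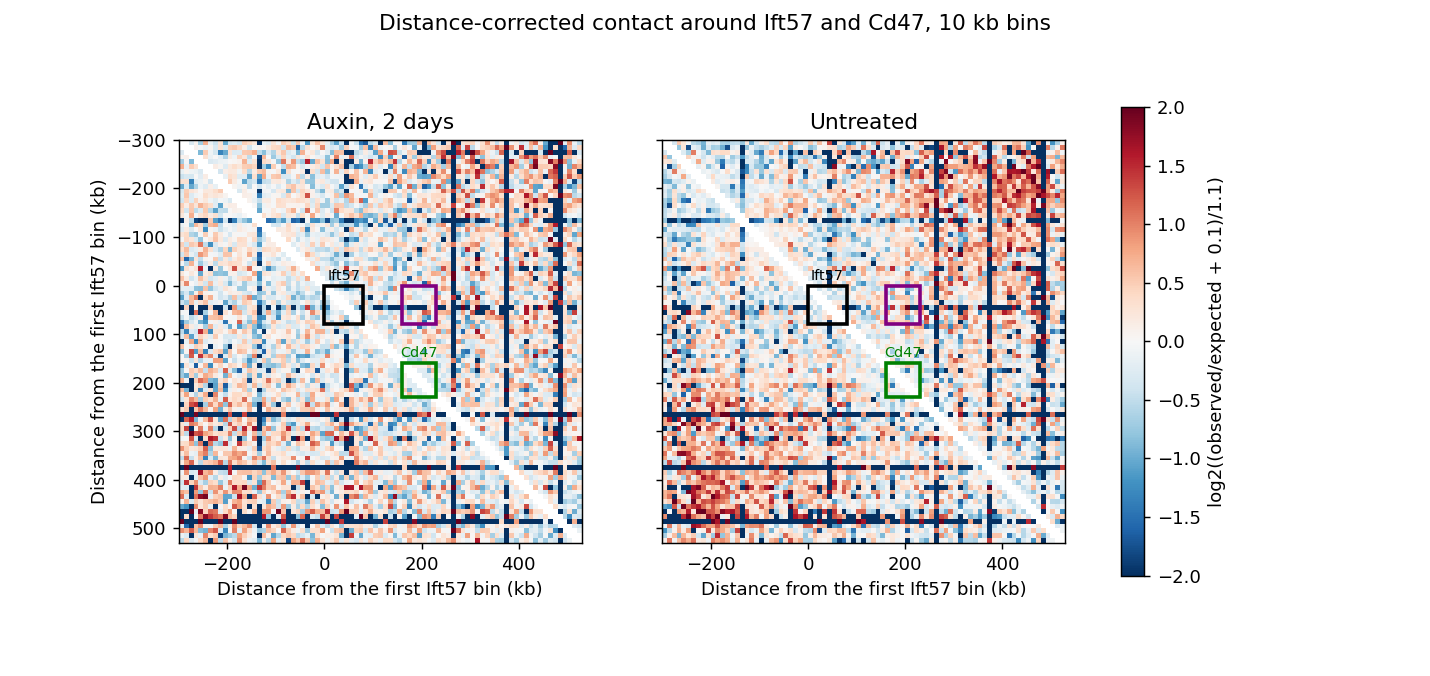
Distance-corrected contact around Ift57 (black square) and Cd47 (green square) in the auxin matrix (left) and the untreated matrix (right). Both axes give the distance from the first Ift57 bin in kb, colour gives log2 of observed over expected contact with a pseudocount of 0.1, and the purple square marks contact between the genes; dark rows and columns are bins with few read pairs.

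By single bins, 5 of the 8 Ift57 bins had log2 ratios with Cd47 between -0.04 and 0.03. The fifth bin gave 0.407 in the auxin matrix from 5 read pairs and 1.51 in the untreated matrix from 11, and was called lower (log2 -1.89, -3.84 to -0.14). Of all single bins set against a stretch of the size and spacing of Cd47, 4.69% were lower and 4.86% higher. The eighth bin, at the 3' end of Ift57, gave 0.899 in the auxin matrix and 1.30 in the untreated matrix, with a log2 ratio of -0.54 (-1.16 to 0.08). Among the Cd47 bins, the third had lower contact with Ift57 in the auxin matrix (0.773, against 1.15 in the untreated matrix; log2 -0.58, -1.03 to -0.13), and the sixth had higher contact (1.11, against 0.624; log2 0.83, 0.14 to 1.52). Against a stretch of the size and spacing of Ift57, 5.53% of all single bins were lower and 5.82% higher. Without the sparsest Ift57 bin the third Cd47 bin had -0.44 (-0.87 to -0.02) and kept its call, and the sixth had 0.58 (-0.05 to 1.22) and did not. The bins that hold the gene starts, 160 kb apart, had 13 read pairs in the auxin matrix and 12 in the untreated one. Their distance-corrected contact was 1.00 (0.535 to 1.72) in the auxin matrix and 0.856 (0.442 to 1.50) in the untreated matrix, and a difference could not be detected at this depth.

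Within the gene bodies neither gene was called. Contact inside Ift57 was 0.802 (0.681 to 0.938) in the auxin matrix and 0.875 (0.747 to 1.02) in the untreated matrix, with a log2 ratio of -0.13 (-0.45 to 0.20), and of -0.04 (-0.31 to 0.23) without the sparsest bin. Contact inside Cd47 was 0.953 (0.852 to 1.06) in the auxin matrix and 0.962 (0.869 to 1.06) in the untreated matrix (log2 -0.01, -0.23 to 0.20). Contact inside the stretch between the genes was 0.954 in the auxin matrix and 0.956 in the untreated one. Its contact with Ift57 was 0.875 in the auxin matrix and 0.987 in the untreated matrix (log2 -0.17, -0.36 to 0.01), and that with Cd47 was 0.977 and 0.983 in the same order (log2 -0.009, -0.16 to 0.14). The value with Ift57 draws on the sparsest Ift57 bin and was not computed without it.

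**Figure D2:**
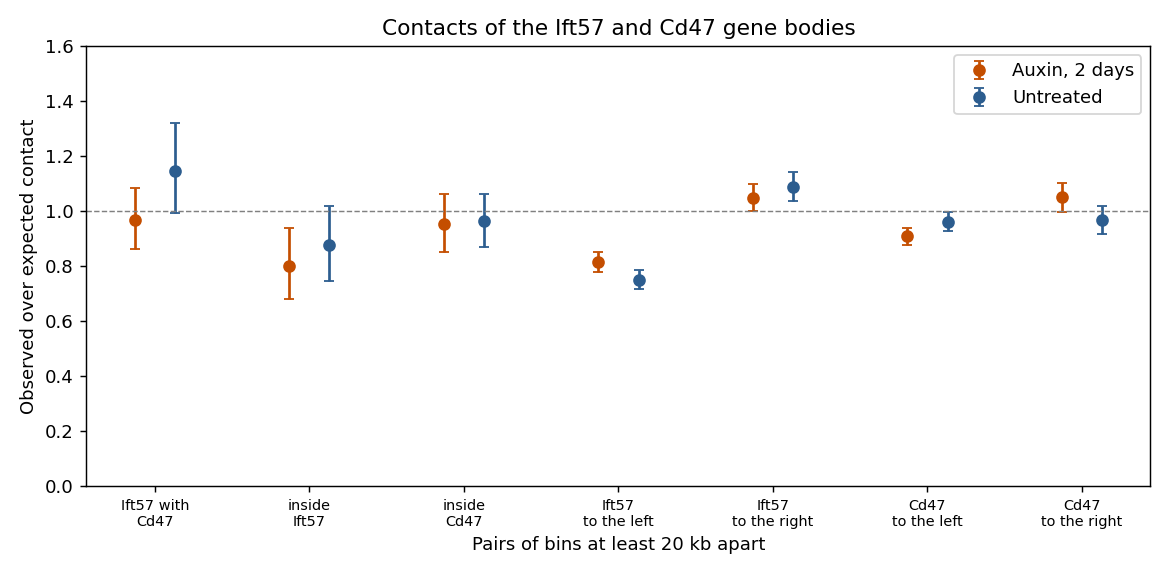
Observed over expected contact of the Ift57 and Cd47 gene bodies, with bins at least 20 kb apart, in the auxin matrix (orange) and the untreated matrix (blue). Bars are 95% counting intervals; Ift57 had less contact to the left than to the right in both matrices, at 0.814 and 1.05 in the auxin matrix and 0.750 and 1.09 in the untreated matrix.

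With squares of 100 kb, local insulation over each gene differed between the matrices by less than its counting error. The insulation score compares, on a log2 scale, the mean contact between the 100 kb left and the 100 kb right of a bin with the average of that quantity in the interval, so a lower score means stronger insulation. Averaged over its bins, Ift57 scored -0.08 in the auxin matrix and -0.09 in the untreated matrix, a difference of 0.01 (-0.11 to 0.13); with squares of 200 kb it was -0.07 (-0.14 to -0.001), which is under the size limit. Cd47 scored -0.07 in the auxin matrix and -0.08 in the untreated matrix, a difference of 0.008 (-0.12 to 0.14). Of the 8 Ift57 bins and the 7 Cd47 bins, 0 were called; over all 515 scored bins 6.99% were called higher and 8.93% lower. Neither gene stood out from the interval, as 33.4% of scored bins lay below the Ift57 mean in the auxin matrix and 29.1% in the untreated one, and 35.7% and 30.5% below the Cd47 mean.

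The stretch between the genes differed more. Its mean score was -0.07 in the auxin matrix and 0.12 in the untreated matrix, a difference of -0.19 (-0.31 to -0.07), just short of the size limit. Its first 5 bins, those next to Ift57, were each called lower, with differences from -0.20 to -0.29, and its last 3 bins were not. The squares behind neighbouring bins overlap, so these 5 bins are not separate observations. All 5 also draw on the sparsest Ift57 bin: without it 0 of the 8 bins were called and the mean difference was -0.07 (-0.18 to 0.03). With squares of 50 kb or of 200 kb, 0 bins were called as well.

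**Figure D3:**
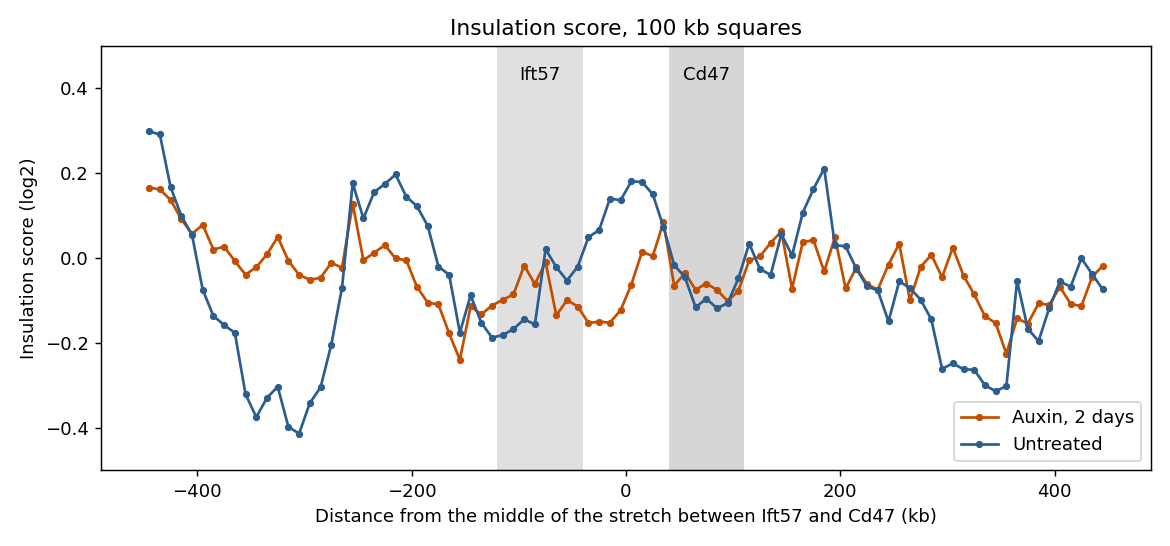
Insulation score (log2) by distance in kb from the middle of the stretch between the genes, in the auxin matrix (orange) and the untreated matrix (blue), with the bins of Ift57 and Cd47 shaded. The lines lie close together over both genes and apart over the first bins between them and 190 kb left of Ift57, where the untreated score reached -0.41.

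Boundaries were taken as local minima at least 0.2 below the lower of the flanking maxima within 250 kb and with no lower bin within 30 kb. In the auxin matrix the nearest were at 49650001, 40 kb left of Ift57, and at 49770001, in the first bin past its 3' end. The bin at 49770001 was no longer a local minimum without the sparsest Ift57 bin, with -0.03 in the auxin matrix and 0.06 in the untreated matrix. In the untreated matrix they were at 49680001, the bin just left of Ift57, and at 49890001, in the fifth bin of Cd47. The scores at the left flank were close, with -0.24 in the auxin matrix and -0.18 in the untreated matrix at 49650001, and -0.11 and -0.19 in the same order at 49680001. The minimum inside Cd47 was shallow, with -0.07 in the auxin matrix and -0.12 in the untreated matrix, a difference of 0.04 (-0.12 to 0.21). A minimum of the untreated matrix that differed between the matrices lay further left, at 49500001, 190 kb from Ift57 and 350 kb from Cd47. There the score was -0.04 in the auxin matrix and -0.41 in the untreated matrix, a called difference of 0.37 (0.25 to 0.50). A bin picked as a minimum of the untreated matrix is favoured to have a positive difference: 21 of the 25 untreated minima did, and 18 of the 25 auxin minima had a negative one.

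The next comparison was of contacts to the left and to the right of each gene. Ift57 touched its left side less than expected in both matrices, at 0.814 (0.780 to 0.850) in the auxin matrix and 0.750 (0.716 to 0.785) in the untreated matrix. Its log2 ratio of 0.12 (0.03 to 0.21) left out 0 but was under the size limit. To the right, Ift57 had 1.05 (1.00 to 1.10) in the auxin matrix and 1.09 (1.04 to 1.14) in the untreated matrix, a log2 ratio of -0.05 (-0.15 to 0.04). Cd47 had 0.909 (0.878 to 0.940) to the left in the auxin matrix and 0.960 (0.926 to 0.995) in the untreated matrix, with a log2 ratio of -0.08 (-0.15 to -0.008). To the right it had 1.05 (0.998 to 1.10) in the auxin matrix and 0.968 (0.918 to 1.02) in the untreated matrix, with a log2 ratio of 0.12 (0.01 to 0.22). The ratios were therefore all under the size limit, and for each gene of opposite sign on the left and on the right. The sides differ in length, since 4.17 Mb lay left of Ift57 and 0.95 Mb right of Cd47.

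Few single bins were called. To the left, 1 of 8 Ift57 bins was higher in the auxin matrix, the fourth (0.841, against 0.714 in the untreated matrix; log2 0.24), where 12% of all 533 bins were. Also to the left, 1 of 7 Cd47 bins was lower, the fifth (0.922, against 1.09; log2 -0.25), where 8.63% of all bins were. To the right, 1 of 7 Cd47 bins was higher, the second (0.975, against 0.774; log2 0.33), and 0 of 8 Ift57 bins were, where 10.5% of all bins were higher and 8.44% lower. Counts of 0 or 1 in 7 or 8 bins are near these shares, so they single out neither gene.

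Over equal reach the balance of the sides differed for Cd47. Within 500 kb, log2 of contact to the right over contact to the left was 0.02 (-0.10 to 0.13) for Cd47 in the auxin matrix and -0.22 (-0.33 to -0.11) in the untreated matrix. The untreated matrix thus had Cd47 leaning to the left, the side of Ift57, and the auxin matrix had no lean beyond its interval. The difference was 0.24 (0.08 to 0.40); within 250 kb it was 0.17 (-0.04 to 0.38) and no longer called. Of all stretches of 7 bins with 500 kb on both sides, 14.9% were called higher and 12.8% lower in this balance. Ift57 leaned to the right, toward Cd47, in both matrices, with 0.18 (0.06 to 0.30) in the auxin matrix and 0.29 (0.17 to 0.40) in the untreated matrix, a difference of -0.11 (-0.28 to 0.06).

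Split by distance, each gene was compared in 13 bands. For Cd47, 2 bands were lower in the auxin matrix and both lay to the left. At 260 to 500 kb, contact was 0.992 (0.926 to 1.06) in the auxin matrix and 1.19 (1.12 to 1.27) in the untreated matrix, with a log2 ratio of -0.26 (-0.40 to -0.13); 16.3% of all stretches of 7 bins were lower at that distance and side. At 110 to 250 kb, a range that holds most of Ift57, it was 1.01 in the auxin matrix and 1.18 in the untreated matrix (log2 -0.23, -0.40 to -0.05), where 8.78% of stretches were lower. This nearer band had -0.08 (-0.21 to 0.04) when recovered read pairs replaced the deposited values and was then not called, whereas the farther band kept its call under each of its 5 alternatives.

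Of the other called bands, all but 1 lay more than 500 kb away, where calls were common across the interval. Ift57 was higher in the auxin matrix 510 to 1000 kb to its left (0.800, against 0.631 in the untreated matrix; log2 0.34, 0.10 to 0.59) and 1010 to 2000 kb to its left (0.634, against 0.452; log2 0.49, 0.16 to 0.83). Of all stretches of 8 bins, 35.7% and 36% were higher in these bands. Cd47 was higher 1010 to 2000 kb to its left (0.702, against 0.580; log2 0.28, 0.05 to 0.50), where 34.6% of stretches of 7 bins were. It was also higher 510 to 1000 kb to its right (1.18, against 0.998; log2 0.24, 0.07 to 0.42), where 25.6% were. The nearer exception was Ift57, which was lower 60 to 100 kb to its right (0.805, against 1.03; log2 -0.36, -0.61 to -0.11), where 10.8% of stretches were, but without its sparsest bin the ratio was -0.20 (-0.43 to 0.03). The matrix balanced again gave 0.29 (-0.02 to 0.60) for Ift57 at 510 to 1000 kb and 0.19 (-0.02 to 0.41) for Cd47 at 510 to 1000 kb to the right, neither of them called.

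**Figure D4:**
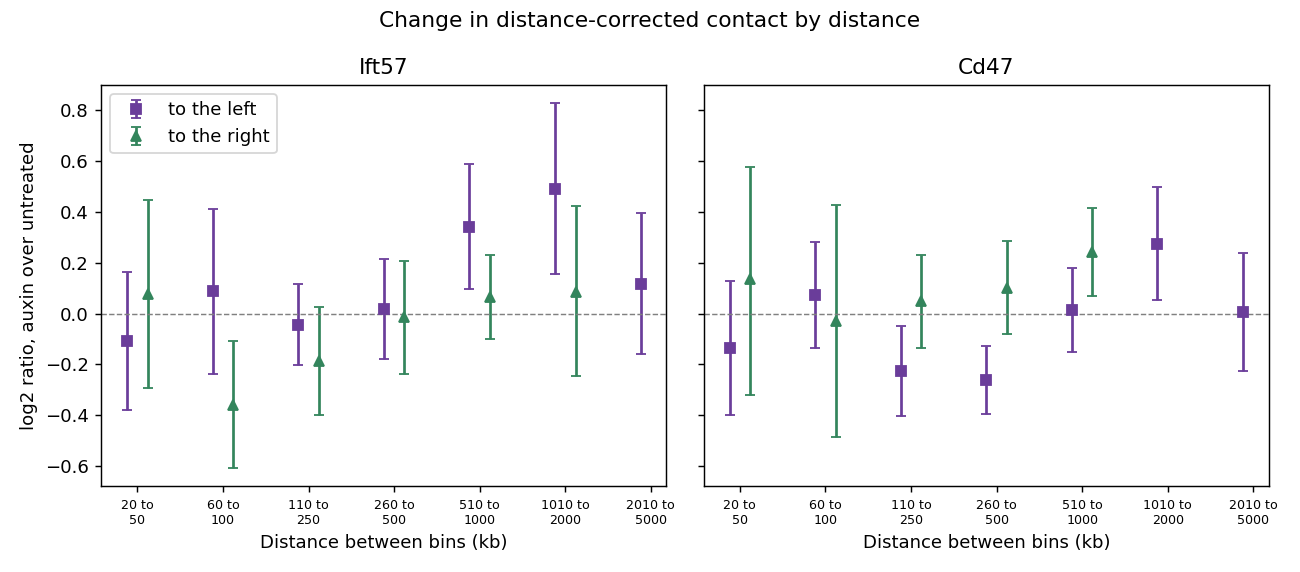
Log2 ratio of distance-corrected contact, auxin over untreated, by distance in kb for Ift57 (left panel) and Cd47 (right panel), with bins to the left (purple squares) and to the right (green triangles). Bars are 95% counting intervals; the ratio of Cd47 at 260 to 500 kb to the left was -0.26, and that of Ift57 at 1010 to 2000 kb to the left was 0.49.

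Windows of 100 kb placed these differences along the chromosome. Among windows with at least 30 read pairs in each matrix, Cd47 had 3 of 31 higher and 1 lower, and Ift57 had 5 of 29 higher and 1 lower; of all 1142 such pairs of windows 14.3% were higher and 11.1% lower. The lower window of Cd47 was 49420001 to 49520000, which holds no protein-coding gene and holds the untreated insulation minimum at 49500001. Contact with it was 1.07 (0.954 to 1.19, 469 read pairs) in the auxin matrix and 1.35 (1.22 to 1.48, 629 read pairs) in the untreated matrix, a log2 ratio of -0.33 (-0.55 to -0.12). The neighbouring windows at 49320001 to 49420000 and 49520001 to 49620000 had -0.27 (-0.55 to 0.02) and -0.16 (-0.35 to 0.03). The window at 49620001 to 49720000, which holds the start of Ift57, had -0.19 (-0.38 to -0.008). Cd47 thus touched the window that holds 49500001 more than expected in the untreated matrix, and the interval in the auxin matrix held 1. The same was true of the windows starting at 49520001, 49620001 and 49720001. Their untreated values were 1.13 (1.04 to 1.24), 1.15 (1.05 to 1.25) and 1.14 (1.03 to 1.26), so the excess was not particular to 49500001.

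For Ift57 the 3 windows with the highest ratios all hold parts of Morc1, which encodes a germline protein that silences transposons in mice. At 48520001 to 48620000 contact was 0.585 (86 read pairs) in the auxin matrix and 0.244 (48 read pairs) in the untreated matrix (log2 1.26, 0.58 to 1.95). At 48420001 to 48520000 it was 0.936 and 0.477 in the same order (log2 0.97, 0.17 to 1.74), and at 48620001 to 48720000 it was 0.679 and 0.409 (log2 0.73, 0.16 to 1.33). In the auxin matrix the intervals of the first (0.419 to 0.794) and of the third (0.546 to 0.836) lay under 1, and that of the second (0.587 to 1.42) held 1. Without the sparsest Ift57 bin the second had 0.62 (0.03 to 1.22). With recovered read pairs in place of deposited values the first was 0.75 (0.23 to 1.29), the second 0.35 (-0.08 to 0.79) and no longer called, and the third 0.76 (0.32 to 1.21). The windows with the lowest ratios were 49820001 to 49920000, which holds Cd47 (0.929, against 1.16; log2 -0.32, -0.52 to -0.11), and 48220001 to 48320000 and 48120001 to 48220000, which were not called. The first of these was called lower, but not without the sparsest Ift57 bin (-0.12, -0.29 to 0.06) or with recovered read pairs (-0.13, -0.27 to 0.007).

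The highest ratios of Cd47 were also to the far left. With 48920001 to 49020000, which holds Cip2a and Dzip3, contact was 0.917 (217 read pairs) in the auxin matrix and 0.546 (148 read pairs) in the untreated matrix (log2 0.75, 0.35 to 1.15). With 48320001 to 48420000, which holds no protein-coding gene, it was 0.898 and 0.481 in the same order (log2 0.90, 0.08 to 1.72), and not called when bins with under 100 read pairs were left out (0.66, -0.02 to 1.36). The third, 48420001 to 48520000 in Morc1, was not called (log2 0.60, -0.009 to 1.23). Across windows, the auxin and untreated values of a gene were correlated, with Pearson's r of 0.816 and Spearman's rho of 0.773 over 29 windows for Ift57, and 0.774 and 0.800 over 31 windows for Cd47. Both matrices share the bins' sequence and mappability, so these are descriptions.

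**Figure D5:**
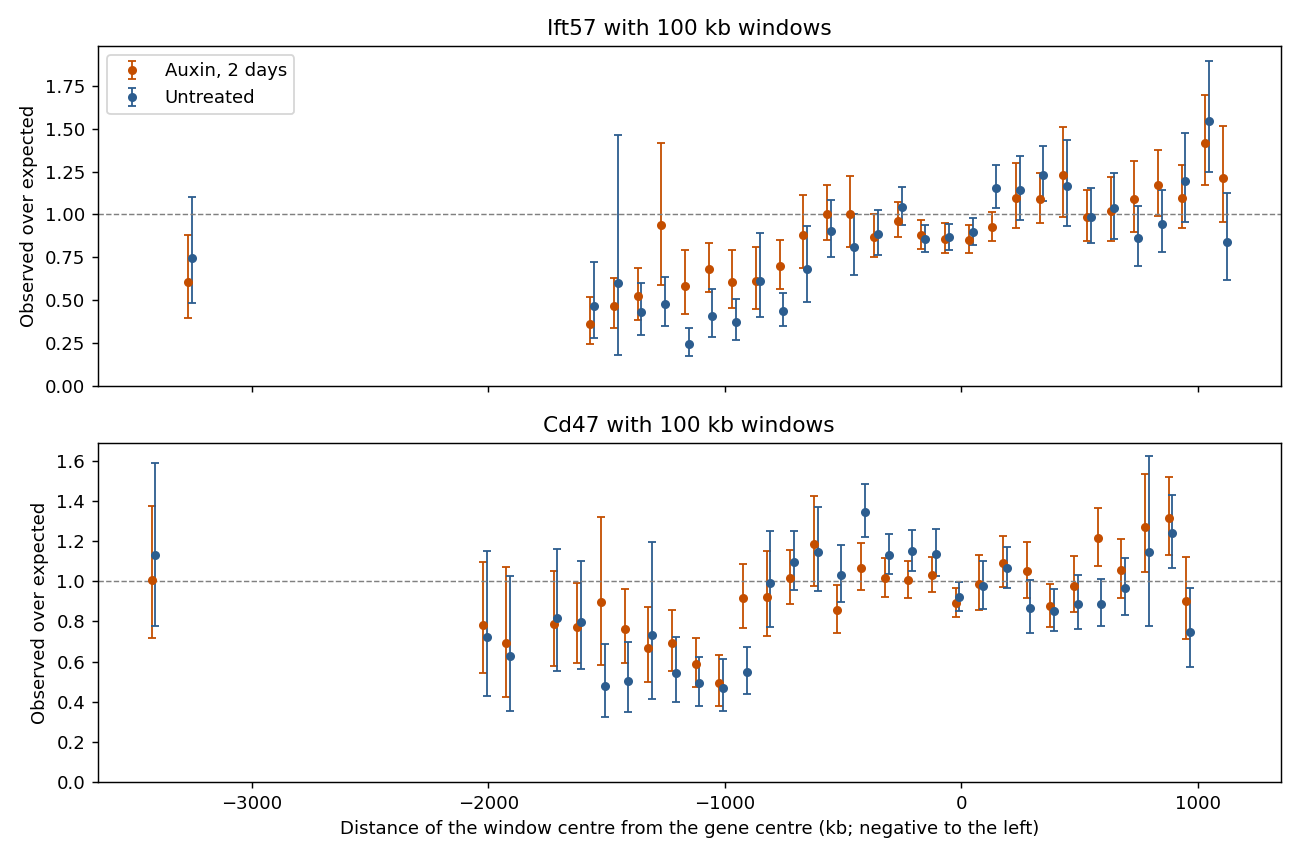
Observed over expected contact of Ift57 (top) and Cd47 (bottom) with 100 kb windows that had at least 30 read pairs in each matrix, by distance in kb from the gene, in the auxin matrix (orange) and the untreated matrix (blue). Bars are 95% counting intervals; Cd47 had 1.07 in the auxin matrix and 1.35 in the untreated matrix with the window 415 kb to its left.

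Contacts with the 20 other listed protein-coding genes that the annotation placed in the interval were then examined. Ift57 had 3 partners higher in the auxin matrix and 0 lower, and Cd47 had 2 higher and 0 lower; over all 221 pairs of listed genes 11.3% were higher and 9.5% lower. The median log2 ratio over the 20 partners was 0.32 for Ift57 and 0.14 for Cd47, against -0.008 over all pairs. These medians are not at like distances: the 20 partners of Ift57 all lie over 500 kb away, midpoint to midpoint, 19 of them to its left, and so do 19 of those of Cd47, all to its left. Over the 157 pairs of listed genes more than 500 kb apart, these included, the median was -0.03. Of the 3 listed germline and early embryo genes (Dppa2, Dppa4 and Morc1), 1 was called for Ift57 and 0 for Cd47. With recovered read pairs in place of deposited values, Cd47 was called higher with Morc1 and with Dppa2. Of the 2 placed immunoglobulin superfamily genes (Cd96 and Nectin3), 0 were called for either gene. The remaining ratios were imprecise where the partner was distant, as with Gcsam, which had 3 read pairs with Ift57 in the auxin matrix and 6 in the untreated matrix.

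All called partners lie to the left, between the Dppa2 and Dppa4 region and Myh15. Dzip3, a ubiquitin ligase gene, was called for both genes. Its contact with Ift57 was 0.668 in the auxin matrix and 0.365 in the untreated matrix (log2 0.87, 0.35 to 1.40), and with Cd47 it was 0.823 and 0.524 in the same order (log2 0.65, 0.17 to 1.14). With each stated position taken as a bin's end, the ratio with Cd47 was 0.37 (-0.12 to 0.87) and not called. Morc1 had 0.747 with Ift57 in the auxin matrix and 0.399 in the untreated matrix (log2 0.91, 0.39 to 1.41), a ratio of 0.40 (0.09 to 0.72) with recovered read pairs. With Cd47, Morc1 had 0.721 in the auxin matrix and 0.618 in the untreated matrix (log2 0.22, -0.30 to 0.78); with recovered read pairs the ratio was 0.65 (0.35 to 0.96) and called higher. Trat1, an adaptor gene of T cells, had 0.618 with Ift57 in the auxin matrix and 0.365 in the untreated matrix (log2 0.76, 0.12 to 1.41), and a ratio of 0.58 (-0.07 to 1.24), not called, with positions as bin ends. Cip2a, whose product restrains protein phosphatase 2A, had 1.21 with Cd47 in the auxin matrix and 0.743 in the untreated matrix (log2 0.70, 0.13 to 1.28). Whether Ift57 and Cd47 differ from each other in these partners was not tested.

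The nearer partners and the Dppa genes were not called with the deposited values. Myh15, a myosin heavy chain gene to the left, had 0.925 with Ift57 in the auxin matrix and 0.766 in the untreated matrix (log2 0.27, -0.11 to 0.66), a ratio of 0.35 (0.14 to 0.57) and called higher with recovered read pairs. With Cd47 it had 0.930 in the auxin matrix and 1.09 in the untreated matrix (log2 -0.23, -0.54 to 0.09). Bbx, an HMG-box gene to the right, had 0.995 with Ift57 in the auxin matrix and 0.999 in the untreated matrix (log2 -0.005, -0.21 to 0.20), and 0.965 and 0.873 with Cd47 in the same order (log2 0.14, -0.02 to 0.31). Dppa4 had 0.343 with Ift57 in the auxin matrix and 0.325 in the untreated matrix, from 12 and 11 read pairs, and 1.00 and 0.847 with Cd47, from 27 and 23. Dppa2 had 3 read pairs with Ift57 in each matrix, and 9 with Cd47 in the auxin matrix against 1 in the untreated matrix (log2 2.77, -0.09 to 8.23). With recovered read pairs the ratio of Dppa2 with Cd47 was 2.94 (0.08 to 8.39) and called, from the same 9 and 1 pairs. The differences of Dppa4 with either gene and of Dppa2 with Ift57 were within counting error.

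The profiles of listed genes were compared with those of Ift57 and Cd47 over 100 kb windows at least 200 kb from both genes, as a description within each matrix. The genes most like Cd47 in the auxin matrix were Bbx (Spearman's rho 0.59, 43 windows), Ift57 (0.57, 47 windows) and Dzip3 (0.41, 44 windows). In the untreated matrix they were Bbx (0.63), Ift57 (0.59) and Myh15 (0.57). For Ift57 they were Cd47 (0.57), Bbx (0.46) and Myh15 (0.40) in the auxin matrix, and Myh15 (0.65), Cd47 (0.59) and Bbx (0.56) in the untreated matrix. The 2 genes were thus among each other's closest matches in both matrices. Genes that lie near each other share windows, depth and library, and no test was made of these likenesses.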

How the data were processed

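The deposited values are a contact signal in 10 kb bins. Replicates were merged and each matrix was balanced iteratively by the authors, as their file names state. The values carry no unit and were not brought to 1 depth. Sums over the bins of the interval were still unequal, from 113 to 2130 in the auxin matrix and from 95.5 to 1905 in the untreated matrix. The submitters' processing notes list mm10 and Trim Galore; aligner, read filters and balancing software are not stated there. Per the labels' protocols, MboI was the enzyme of the Capture Hi-C libraries, whose probes target fragments with a variant between the strains; no source links these matrices to such libraries. Each stated position was taken as the start of its bin.

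Deposited values were resolved into read pairs by estimating 1 factor per bin from bin pairs more than 1500 kb apart. With these, 100% of the 82308 nonzero values in the auxin matrix and of the 77155 in the untreated matrix lay within 0.02 of a whole number. Distance-corrected contact was the summed deposited value over the summed expected value, for bins at least 20 kb apart. Intervals were exact Poisson for 1 value and Clopper-Pearson for a ratio, on effective counts. Those for insulation and for the difference in balance between the matrices were by the delta method. All of them cover counting error only. No test between conditions was possible with 1 pooled matrix each. The calculation was also run on simulated matrices, with independent counts drawn from the expected values and bin factors of the untreated matrix. Such counts hold no PCR copies and no differences between replicates, so the run cannot show how the intervals do with these.

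Members, gene lists and the rule for named items were chosen with earlier results of these data known. That rule names Ift57, Cd47, Myh15, Bbx, Dppa2, Dppa4, any other called partner, the 3 highest and 3 lowest windows for each gene, and the 3 genes with the most similar profiles. Distance bands, placements, boundaries, single bins of 1 gene with the other, shares over the interval for balance and single bins, gene starts and CpG counts were added after seeing the files. Of 25 listed genes, 20 overlapped the interval; the others were not analysed here. Python 3.11.15, NumPy 2.4.6 and SciPy 1.17.1 were used, with Matplotlib 3.10.9 for figures.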

Additional observations from a re-analysis of the deposited data

How the results depend on the processing

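Of 194 alternatives for 44 results, 173 were the same, 11 weaker, 4 stronger, 6 moved and 0 reversed. Some alternatives could hardly change their result. Bins of Ift57 and Cd47 are at least 90 kb apart, so a minimum distance of 50 kb left their contact as it was. The 100 kb squares over Cd47 do not hold the sparsest Ift57 bin. A ratio or difference was the same if it kept the side of the call, and 12 did so with the other sign among uncalled results. Counts of calls and correlations have no call, and were the same or moved by how far the value changed. Balancing the matrix again gave an insulation difference of -0.23 over the stretch between the genes, past the size limit. Taking each position as a bin's end, an alternative chosen after seeing the data, gave -0.36 for Ift57 with Cd47, which was then called lower, and 1 called partner of Cd47; recovered read pairs gave 4 called partners. The balance of Cd47 was 0.17 within 250 kb. The number of bins called lower in insulation between the genes was 0 with squares of 50 kb, 0 with squares of 200 kb and 0 without the sparsest Ift57 bin, the last again chosen after seeing the data. The likeness of Cd47 and Ift57 in the untreated matrix was 0.46 with windows of 50 kb. The causes of these shifts were not tested, and the sparsest bin was left out for some results only. No paired analysis was possible because each condition was deposited as 1 matrix of combined replicates, and no replicate could be left out. Depth limits single bin pairs and partners over 2 Mb away, where 67.5% of bin pairs in the auxin matrix and 71.9% in the untreated matrix were empty.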

Other observations

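Of the 8 bins between the genes, the second past Ift57, at 49780001, was called higher in the auxin matrix on both sides, and the other 7 on neither. Of all 533 bins, 12% were called higher to the left and 10.5% to the right, so 1 bin in 8 is near the share on each side. The share of bins called higher on both sides at once was not computed. The contact of the bin at 49780001 to the left was 0.968 in the auxin matrix and 0.809 in the untreated matrix (log2 0.26, 0.04 to 0.48). To the right it was 1.13 and 0.958 in the same order (log2 0.24, 0.005 to 0.47). It held 1046 read pairs in the auxin matrix and 806 in the untreated matrix, the fewest of the stretch in each, and the part of this depth in the result was not tested. The bin was chosen after its values were seen.

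Beyond the windows named above, the called windows of Cd47 included 50420001 to 50520000 to its right. This window holds the right-hand limit of the Bbx body, at 50432466. Contact there was 1.21 (1.08 to 1.36) in the auxin matrix and 0.889 (0.778 to 1.01) in the untreated matrix, a log2 ratio of 0.45 (0.20 to 0.71). The windows of Ift57 at 48720001 to 48820000, with Trat1 and Retnlb, and at 48920001 to 49020000, with Cip2a and Dzip3, had log2 ratios of 0.71 (0.09 to 1.33) and 0.68 (0.24 to 1.13). These windows were also chosen after their values were seen.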
